A study of Mus musculus with 5 samples.

Results

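The 6 genes described here encode nuclear retained RNAs and paraspeckle proteins. They are the long non-coding RNA genes Malat1, Neat1 and Kcnq1ot1 and the protein genes Sfpq, Nono and Pspc1. They were taken by gene symbol from 12615 genes, and all 6 were found and passed the filter on low values, a mean normalized signal of at least 10. The set was chosen by its members' signal in these same 5 libraries, known from earlier results, so the difference between the groups is a description for them and carries no p-value of its own.

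Some RNAs that are retained in the nucleus act there as scaffolds or at the gene they come from. Malat1 RNA gathers in nuclear speckles, the bodies that store splicing factors. Neat1 RNA has a short form and a long form, and the long form builds the paraspeckle, a body in which proteins and some RNAs are held back. Sfpq, Nono and Pspc1 are the DBHS proteins, which pair with each other and coat Neat1 RNA. Kcnq1ot1 RNA is made from the paternal copy of an imprinted region and keeps neighbouring genes on that copy silent.

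RNA was sequenced from C2C12 cells, an established mouse line of myoblasts, which are the precursors of muscle fibres. The 3 controls received an empty plasmid, pCMVmiR (EV1 to EV3 below), and the other 2 samples are labelled miR-16 knockdown (KD1 and KD2), all with a transfection time of 5 hours. The protocol names a plasmid made for miR-16-1 and does not say how it lowers the miRNA, whose level was not measured here, so the direction of the treatment rests on the label. No label ties a sample to a culture of its own, so the p-values below rest on a spread between libraries that could be technical.

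Each sample held an estimated 15.1 to 20.1 M reads in listed genes. By the column names, EV1 and EV3 ran on one flow cell, here A, and EV2, KD1 and KD2 on another, here B. Lane splits the libraries in the same way, so results are also given on flow cell B alone, where EV2 is the only control. All 6 myoblast markers were detected, with a summed signal of 9458 to 9875 in the EV and 9457 to 9867 in the KD samples. Of 8 myotube markers 1 was in the table, Acta1, at 34.9 to 59.3. Of 10 markers of other cell types 2 were in it, Cd14 at 378 to 432 and Krt18 at 1.88 to 4.31. Over all genes, 0 of 11990 passed an adjusted p of 0.05 with limma (0%), while 975 (8.13%) had an unadjusted p under 0.05. Single libraries decided that count, which was 105 without KD1 and 35 without EV2.

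The miRNA at issue and its matches in the 3 long RNAs are shown because miR-16 is the manipulated molecule. A miRNA recognises RNA mainly through its seed, bases 2 to 8, in capitals here in the RefSeq sequence from GRCm38.p6 chr14:61631936-61631957, minus strand. The lines below it show the 8-base matches (TGCTGCTA, in capitals, searched on the transcript's own strand) in the GENCODE M21 transcripts.
miR-16-5p: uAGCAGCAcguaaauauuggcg
Malat1: ctgttccaatcTGCTGCTAttagaatgcat
Neat1, first match: aagaattccaaTGCTGCTAtctaaaggaat
Neat1, second match: gatgcaaacaaTGCTGCTAtgaacacgtgt
Kcnq1ot1: tagccttccccTGCTGCTAcatattccaga

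All of these matches lie in exons of non-coding transcripts on the minus strand of GRCm38. The Malat1 match is at chr19:5797635-5797642, base 5031 of 6983. The Neat1 matches are at chr19:5842931-5842938 and chr19:5830782-5830789, and the first also lies in the short form. The Kcnq1ot1 match is at chr7:143268606-143268613.

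Counting the 7-base matches TGCTGCT and GCTGCTA as well, where a pair that overlaps in an 8-base match counts once, Malat1 RNA had 1 match, the long form of Neat1 4 and Kcnq1ot1 RNA 13. The longest coding transcripts of Sfpq, Nono and Pspc1 had 0. Long transcripts hold more such words by length alone. Among tested genes with a transcript within 1.5-fold of its length, 79.6% had a match for Malat1's length and 97.01% for the long Neat1 form. For the lengths of Sfpq, Nono and Pspc1 the shares were 61.4%, 53.8% and 65.8%. An 8-base match was rarer, in 16.8% at Malat1's length, 38.8% for the long and 8.80% for the short Neat1 form. Only 3 tested genes, Kcnq1ot1 among them, were near the length of Kcnq1ot1, with a median of 15 matches of any kind. A match is a run of letters and not a measured binding site.

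**Figure D1:**
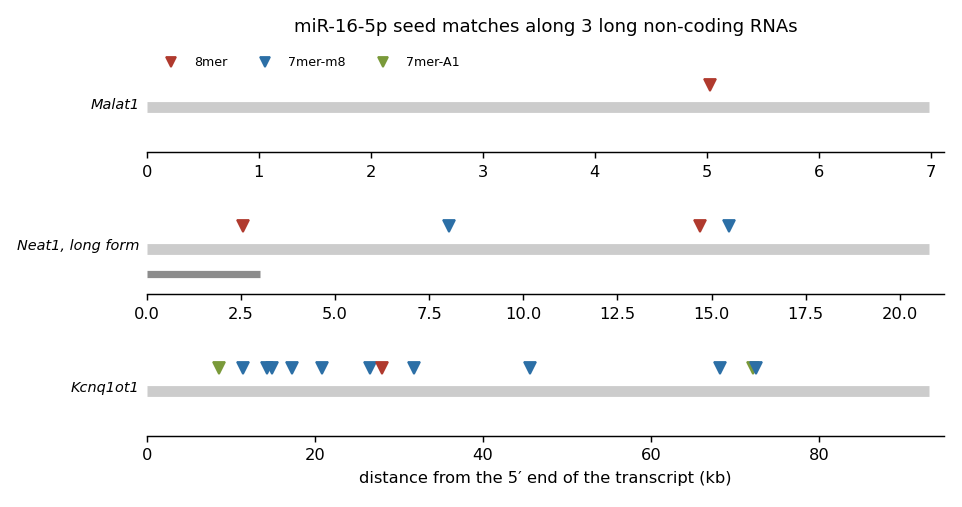
Positions of words matching the miR-16-5p seed (triangles; 8mer for TGCTGCTA, 7mer-m8 for TGCTGCT, 7mer-A1 for GCTGCTA) along Malat1, the long form of Neat1 and Kcnq1ot1, in kb from the 5′ end of each transcript; each row has its own scale. The dark bar under Neat1 marks the length of the spliced short form, which is 3004 nt. Malat1 has 1 match, Neat1 4 and Kcnq1ot1 13.

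The 3′ ends of the 3 RNAs differ, which bears on how a library captures them. RNase P cuts Malat1 RNA and the long form of Neat1 behind an A-rich tract, and the tract folds into a protected end without a poly(A) tail. The shared word AAAAAGCAAAA is in capitals in the first pair of lines, and the poly(A) signal AATAAA in the others.
Malat1, tract: ttccctagctttaaaaaaaAAAAAGCAAAA
Neat1 long form, tract and end: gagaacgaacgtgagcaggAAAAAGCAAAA
Neat1 short form, end: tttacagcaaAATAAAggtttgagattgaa
Kcnq1ot1, end: taatAATAAAgacattaaaatccacaaaac

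The Malat1 tract is at chr19:5795982-5796011 of GRCm38, minus strand, and the annotated transcript runs 292 bases beyond it. The Neat1 tract is the last 30 bases of the long form, at chr19:5824708-5824737, and the Kcnq1ot1 end is at chr7:143203458-143203487. The word AATAAA stood in the last 50 bases of the annotated Malat1, short Neat1, Kcnq1ot1, Sfpq and Pspc1 transcripts but not of long Neat1 or Nono, against 64.1% of all tested genes. The word AAAAAGCAAAA was itself taken from the end of the long Neat1 form, so its presence there is given. At any position of the transcript, it was found in 1.14% of tested genes. Whether the libraries selected poly(A) RNA is not given in the sources used here, so capture of the tailless forms cannot be judged.

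Malat1, the nuclear speckle RNA on chromosome 19, had lower values with knockdown. Its normalized signal, which is the reads of a gene scaled by the size factor of the library, stood at 5771 in EV1, 4443 in EV2 and 5671 in EV3. KD1 had 3767 and KD2 2859.7. Both KD samples lay below all 3 controls, and EV2 was the lowest control. The group means were 5295 ± 740 (SD, n = 3) and 3313 ± 642 (SD, n = 2), a ratio of 0.626. The log2 difference, knockdown minus empty vector, was -0.68 ± 0.14 (SE), and 1.33% of all tested genes had a lower one. In bulk RNA, fewer cells that make a transcript and less transcript per cell cannot be told apart.

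The Malat1 difference was smaller on flow cell B. Against EV2 alone the ratio was 0.746 and the log2 difference -0.44 ± 0.16 (SE). The controls themselves split along the same line, since the mean of EV1 and EV3 was 1.29 times EV2. On the log2 scale that gap of 0.36 was larger in size than that of 85.8% of tested genes. All 3 ribosomal RNA signals in the table split the same way. Rn18s, the small-subunit ribosomal RNA, was 240989 in EV1 and 484918 in EV3, but 76098 in EV2, 67529 in KD1 and 85389 in KD2. Its precursor Rn45s was 50194 in EV1, 35322 in EV2, 44656 in EV3, 27222 in KD1 and 30326 in KD2, with no overlap of the groups. Lars2, a gene whose annotation can take up ribosomal reads, was 47159 in EV1 and 77733 in EV3 against 14022 to 16639 in the other libraries. The part of these signals in the Malat1 difference was not tested.

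**Figure D2:**
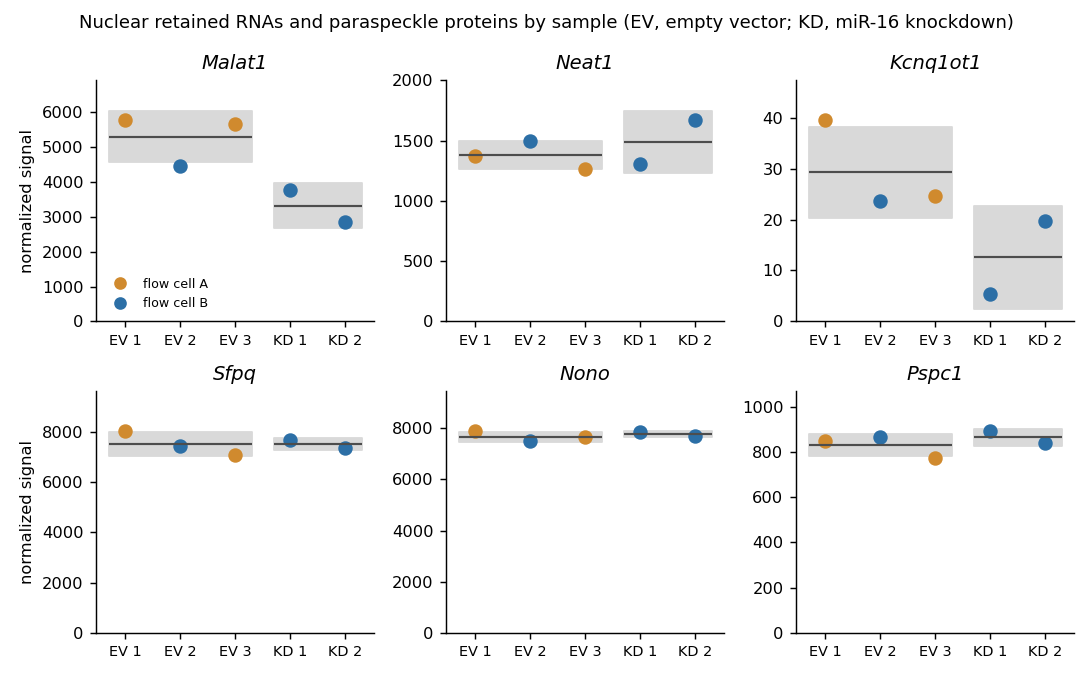
Normalized signal (linear axis from 0) of the 6 genes in each of 3 empty vector (EV) and 2 miR-16 knockdown (KD) samples; point colour gives the flow cell, lines the group mean and grey bands ± 1 SD. Malat1 and Kcnq1ot1 are lower in both KD samples than in any EV sample, while the groups overlap for Neat1, Sfpq, Nono and Pspc1.

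Neat1, the paraspeckle scaffold gene, lies at chr19:5824708-5845478 of GRCm38 beside Malat1 at chr19:5795690-5802672, and its groups overlapped. Its signal was 1374 in EV1, 1495 in EV2, 1263 in EV3, 1308 in KD1 and 1670.03 in KD2. The highest sample was KD2, in which Malat1 was lowest, whereas KD1 lay below EV1 and EV2. The means were 1377 ± 116 (SD, n = 3) and 1489 ± 256 (SD, n = 2). The log2 difference was 0.10 ± 0.11 (SE), and -0.016 ± 0.14 on flow cell B. Its sign depended on the KD sample used, at 0.28 without KD1 and -0.071 without KD2. The table has 1 value per gene, so the short and the long form of Neat1 cannot be told apart.

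The ratio of Neat1 to Malat1 signal, taken within each library, is free of the size factor. It was 0.238 in EV1, 0.336 in EV2, 0.223 in EV3, 0.347 in KD1 and 0.584 in KD2. KD2 stood apart, and KD1 was close to EV2 of the same flow cell.

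Kcnq1ot1, the imprinting RNA on chromosome 7, was measured near the limit of depth. Its signal was 39.5 in EV1, 23.5 in EV2 and 24.6 in EV3, an estimated 37, 29 and 23 reads. KD1 had 5.39 and KD2 19.7, an estimated 5 and 21 reads. The groups did not overlap, but KD2 lay close to EV2 and EV3. The group means were 29.2 ± 8.92 (SD, n = 3) and 12.5 ± 10.1 (SD, n = 2), a ratio of 0.429. The 95% exact Poisson interval of the signal, which covers counting error only, was 1.75 to 12.6 for KD1 and 12.2 to 30.1 for KD2. It was 15.8 to 33.8 for EV2 and 15.6 to 37.0 for EV3. The interval of KD2 overlapped that of both these controls, and that of KD1 did not.

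The log2 difference of Kcnq1ot1 on log2(signal + 1) was -1.36 ± 0.53 (SE) and -1.09 ± 0.75 on flow cell B. It was -0.51 without KD1 and -2.20 without KD2, and 0.125% of all tested genes had a lower difference than the pooled one. The size of the difference thus rests on KD1. The gene overlaps the coding gene Kcnq1 on the opposite strand at chr7:143203458-143296549 of GRCm38. The strand setting is not given in the sources used here, so reads of the pair may be mixed.

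The 3 DBHS genes had nearly level signals. Nono, on chromosome X, had 7882 in EV1, 7488 in EV2, 7649 in EV3, 7862 in KD1 and 7686 in KD2. Both KD samples lay within the range of the controls. Sfpq, on chromosome 4, had 8024 in EV1, 7441 in EV2, 7072 in EV3, 7689.8 in KD1 and 7365 in KD2, again within the controls' range. Sfpq and Nono proteins are both required for paraspeckles to form. Pspc1, on chromosome 14, whose protein is dispensable for paraspeckles, had 849 in EV1, 868 in EV2, 775 in EV3, 892 in KD1 and 839 in KD2. Here KD1 was the highest sample, and the groups overlapped.

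In GRCm38 (GENCODE M21) Nono lies at chrX:101429318-101448591 and Sfpq at chr4:127021324-127037013, both on the plus strand, and Pspc1 at chr14:56720710-56778316 on the minus strand. Annotated genes overlap some of the 6 on the same strand, namely Gm12940 in Sfpq, Gm27694 in Malat1 and Gm27533, Gm27505 and Gm28006 in Neat1. Gm37376 overlaps Malat1 on the opposite strand. Reads of these genes may be shared.

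The log2 differences were 0.019 ± 0.069 (SE) for Nono, 0.0045 ± 0.075 for Sfpq and 0.060 ± 0.096 for Pspc1. On flow cell B they were 0.054 ± 0.093, 0.016 ± 0.094 and -0.0057 ± 0.13. Nono was among the steadiest genes of the table, with a coefficient of variation over the 5 samples of 2.11%, and 1.03% of tested genes varied less. Sfpq had 4.76% and Pspc1 5.21%, where 13.8% and 17.2% of tested genes varied less. The long RNAs varied more, with 11.5% for Neat1, 27.7% for Malat1 and 54.1% for Kcnq1ot1, where 61.1%, 90.2% and 98.5% of tested genes varied less. These values include any difference between the groups. They were not matched for signal, in which Nono ranked 289 and Kcnq1ot1 11253 of 11990 tested genes. The ratio of Nono to Sfpq signal stayed between 0.982 and 1.08, and that of Pspc1 to Sfpq between 0.106 and 0.117.

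**Figure D3:**
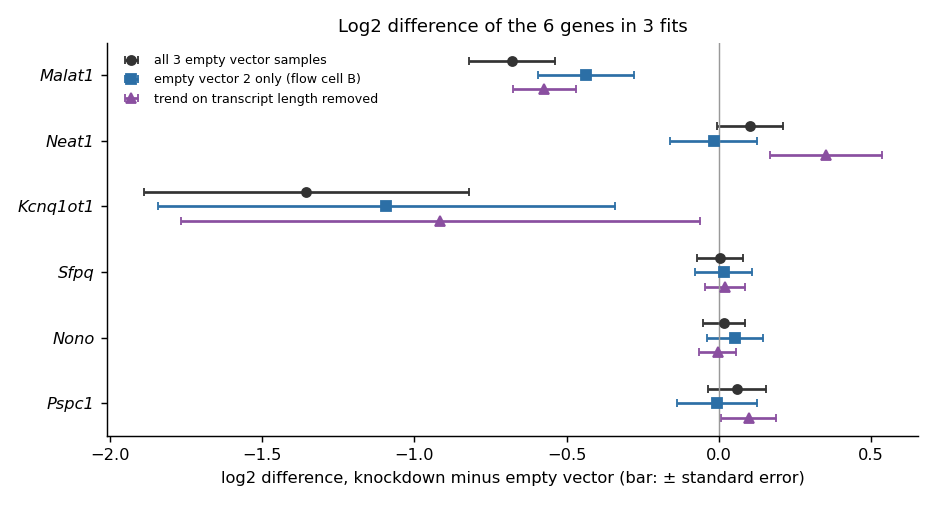
Log2 difference (knockdown minus empty vector) with its standard error for each of the 6 genes, fitted with all 3 empty vector samples, with empty vector 2 only, and with each sample's trend on transcript length removed. Malat1 and Kcnq1ot1 are below 0 in all 3 fits, and the 3 DBHS genes lie between -0.0057 and 0.098.

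Of the 6 genes, 2 had groups that did not overlap, both lower with knockdown, which held for 12.4% of all tested genes in that direction. No gene of the 6 had groups apart in the higher direction, which held for 11.4% of tested genes, or 23.8% in either direction. These counts describe genes chosen with this comparison known. In the limma fit over all genes Malat1 had an adjusted p of 0.527, which is no test of a gene chosen in this way. The authors' deposited table gave Malat1 a ratio of 0.626 and an adjusted p of 0.0349, position 50 of 6588 genes with an adjusted p. It gave the ribosomal RNA precursor Rn45s an adjusted p of 0.0347. There, 70 genes (1.06%) were under 0.05, and 57 (0.865%) were lower with knockdown. The same deposited table gave Neat1, Pspc1, Nono and Sfpq ratios of 1.08, 1.04, 1.01 and 1.002 with adjusted p-values of 0.731, 0.869, 0.931 and 0.991. For Kcnq1ot1 the authors' deposited table held a ratio of 0.438 and an unadjusted p of 0.0294, with no adjusted value.

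Per length, Nono and Sfpq led. Mean signal per kb of transcript over all 5 samples was 3011 ± 63.7 (SD, n = 5) for Nono and 2170 ± 103 (SD, n = 5) for Sfpq. Malat1 followed at 645 ± 179 (SD, n = 5) and Pspc1 at 205 ± 10.7 (SD, n = 5). Neat1 stood at 68.5 ± 7.89 (SD, n = 5) over the length of its long form, which understates it where the short form prevails. Kcnq1ot1 was lowest at 0.242 ± 0.131 (SD, n = 5). The gaps between neighbours in this order exceeded their SDs, and the place of Neat1 depends on the form assumed.

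Signal also moved with transcript length over the whole table. Kcnq1ot1 and the long form of Neat1 are among the longest transcripts, and Malat1 is not. Counting the gene itself, 3, 67 and 2751 tested genes in this order lay within 1.5-fold of their length. The slope of the log2 signal per doubling of length, relative to the mean of the 5 samples, was 0.071 in EV1, -0.017 in EV2, 0.054 in EV3, -0.014 in KD1 and -0.093 in KD2. EV1 and EV3 thus leaned most to long transcripts and KD2 least. For knockdown minus empty vector the slope was -0.089 with all 3 controls and -0.036 against EV2 alone. Malat1 was highest in EV1 and EV3 and lowest in KD2, whereas Neat1 was highest in KD2 and lowest in EV3. With each sample's linear trend removed, Malat1 had a log2 difference of -0.57 ± 0.10 (SE) and Kcnq1ot1 -0.91 ± 0.85. Neat1 moved to 0.35 ± 0.18 with the length of its long form, 20771 nt, and to 0.10 with the 3004 nt of its short form, an alternative chosen after seeing the data. At 93092 nt, Kcnq1ot1 lies beyond nearly all other transcripts, where the line is poorly held. The part of length in these differences was not tested otherwise.

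**Figure D4:**
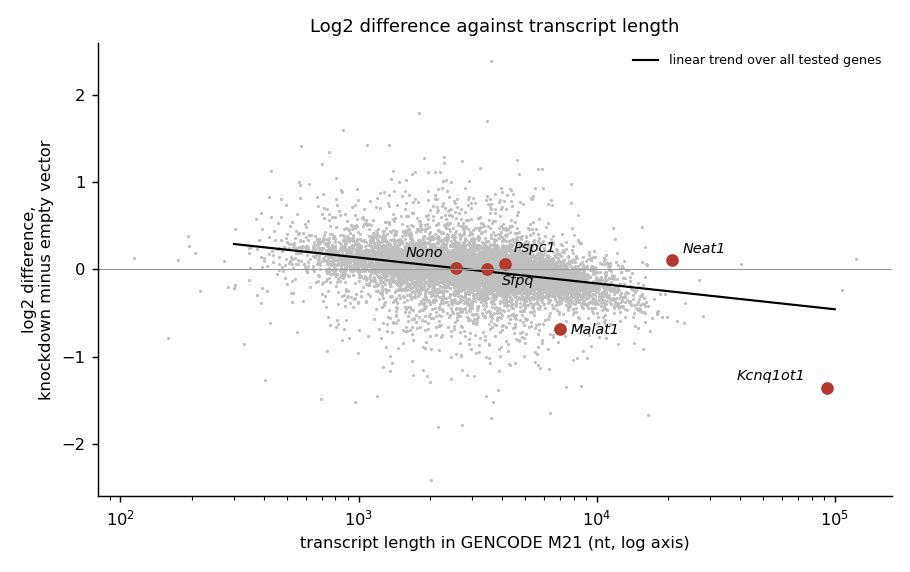
Log2 difference (knockdown minus empty vector) against GENCODE M21 transcript length on a log axis, for all tested genes (grey) with the linear trend (slope -0.089 per doubling) and the 6 genes in red. All 3 empty vector samples are used, and against empty vector 2 alone the slope, not drawn, was -0.036. Malat1 and Kcnq1ot1 lie below the line and Neat1 above it at its long-form length of 20771 nt.

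For each long RNA, the 3 tested genes with a mean signal of at least 50 and the most similar profile over the 5 samples were taken, by the root mean square difference of centred log2 values. For Malat1 these were 4932438A13Rik at 0.075, Syne1 at 0.085 and Il6ra at 0.090, where the profile of Malat1 itself had a root mean square of 0.38. Their transcripts have 15883, 27908 and 8639 nt, all longer than Malat1. For Neat1 they were Fos at 0.014, Mllt11 at 0.022 and Ppil3 at 0.022, against 0.14 for Neat1 itself. These transcripts have 2108, 1923 and 1363 nt, all shorter than either form of Neat1. For Kcnq1ot1 they were Lratd2 at 0.50, Primpol at 0.52 and Vwa1 at 0.53, against 0.89. With 5565, 3772 and 3623 nt, they are far shorter than Kcnq1ot1. With 5 samples many genes resemble one another, so these are descriptions.

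Genes for other paraspeckle proteins had mostly slightly higher values. Of 39 listed, 37 were tested, 27 higher and 10 lower, with a median log2 difference of 0.064. Over all tested genes 6022 were higher and 5968 lower, with a median of 0.00073. In the list, 9 of 37 genes had groups apart in the higher direction and 3 in the lower, against 11.4% and 12.4% of all tested genes. None passed the threshold with limma, and 2 had an unadjusted p under 0.05. The 4 most abundant were Hnrnpf, Hnrnpk, Hnrnpm and Rbm3. Hnrnpk, whose protein favours the long form of Neat1, had 8945 ± 361 (SD, n = 3) in EV samples and 9803 ± 159 (SD, n = 2) with knockdown. Its log2 difference was 0.13 ± 0.070 (SE, adjusted p = 0.652 by limma). Rbm3, which encodes a cold-induced RNA-binding protein, had 0.15 ± 0.069 (adjusted p = 0.597), Hnrnpm 0.12 ± 0.077 and Hnrnpf 0.065 ± 0.068. On flow cell B the median was 0.039.

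Genes for nuclear speckle proteins, which share their body with Malat1 RNA, went both ways. All 23 were tested, 12 higher and 11 lower, with a median of 0.0087. None passed the threshold with limma, and 3 had an unadjusted p under 0.05, against 8.13% of all tested genes. In the list, 2 of 23 genes had groups apart in the lower direction and 3 in the higher, against 12.4% and 11.4% of all tested genes. Srrm2, whose protein is a core of the speckle, had 11522 in EV1, 9869 in EV2, 10854 in EV3, 9532 in KD1 and 7168 in KD2, without overlap. Its log2 difference was -0.38 ± 0.11 (SE, adjusted p = 0.535 by limma), -0.26 on flow cell B and -0.24 with the length trend removed. The authors' deposited table gave Srrm2 an adjusted p of 0.0324. Prpf8, of the spliceosome, had -0.28 ± 0.086 (adjusted p = 0.535 by limma), -0.23 on flow cell B and -0.16 with that trend removed. Its adjusted p in the authors' deposited table was 0.0753. The splicing factor genes Srsf1 and Srsf2 had 0.10 ± 0.069 and 0.047 ± 0.070.

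Among 10 other non-coding RNAs tested of 17 listed, 3 were higher and 7 lower, with a median of -0.080, which was 0.11 on flow cell B. None passed the threshold with limma, and 1 had an unadjusted p under 0.05. That was Xist, the RNA that coats the inactive X chromosome, with 11128 in EV1, 10162 in EV2, 10284 in EV3, 8668 in KD1 and 6521 in KD2. As with Malat1, KD2 was lowest and the groups did not overlap. Its log2 difference was -0.48 ± 0.10 (SE, adjusted p = 0.527 by limma), -0.43 on flow cell B and -0.26 with the length trend removed. The authors' deposited table gave Xist an adjusted p of 0.00666. Firre and Peg13, a nuclear RNA of the X chromosome and an imprinted RNA, had -0.23 ± 0.21 and -0.13 ± 0.15. With Xist, 3 of the 10 RNAs had groups apart in the lower direction, against 12.4% of all tested genes, and Pvt1 and Norad, 2 of the 10, in the higher, against 11.4%.

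The other members of this list showed no common direction. Tug1 had a log2 difference of -0.083 ± 0.11 (SE), Ftx -0.0011 ± 0.18, Pvt1 0.16 ± 0.16 and Norad, an RNA that is mainly cytoplasmic, 0.15 ± 0.077. At low signal, Jpx had -0.076 ± 0.84, Dleu2 0.022 ± 0.50 and Rn7sk -0.85 ± 0.60. Rn7sk, which holds back transcription elongation, had 35.2 in EV1 and 48.2 in EV3, but 9.74 in EV2, 18.3 in KD1 and 10.3 in KD2, so it split by flow cell, and its difference on flow cell B was 0.46.

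Around Malat1 and Neat1, 7 neighbours were tested of 9 listed, 6 higher and 1 lower with a median of 0.097, none past the threshold with limma and 0 with an unadjusted p under 0.05. The median was 0.0071 on flow cell B and ranged from -0.0071 to 0.16 when 1 library was left out. Frmd8, beside Neat1, had 1585 ± 58.9 (SD, n = 3) in EV and 1534 ± 43.1 (SD, n = 2) in KD samples, a log2 difference of -0.047. Ltbp3, Fam89b and Ehbp1l1 had log2 differences of 0.051 ± 0.079 (SE), 0.097 ± 0.11 and 0.12 ± 0.17. Slc25a45 had 0.26 ± 0.27 and Tigd3 0.30 ± 0.39, at mean signals of 81.3 and 28.0.

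In the imprinted domain of Kcnq1ot1, 6 genes were tested of 12 listed, 5 higher and 1 lower, with a median of 0.020, none past the threshold with limma and 1 with an unadjusted p under 0.05. The median was -0.0077 on flow cell B, where Cdkn1c, Nap1l4 and Cd81 were below 0, and ranged from 0.015 to 0.050 when 1 library was left out. Cdkn1c, an inhibitor of the cell cycle that Kcnq1ot1 silences on the paternal copy, had 32.3 ± 11.5 (SD, n = 3) in EV and 39.2 ± 8.21 (SD, n = 2) in KD samples. Its groups overlapped, with a log2 difference of 0.31 ± 0.38 (SE), and -0.22 on flow cell B. Tssc4 had 299 ± 38.5 (SD, n = 3) and 389 ± 5.13 (SD, n = 2), a log2 difference of 0.39 ± 0.14 (SE, adjusted p = 0.565 by limma), and 0.20 on flow cell B. Nap1l4, Cars, Osbpl5 and Cd81 had 0.032, 0.0045, -0.10 and 0.0070.

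Genes that make or remove nuclear RNA ends were balanced, with 11 of 20 higher, a median of 0.0065, none past the threshold with limma and 0 with an unadjusted p under 0.05. Pop1, a subunit of RNase P, had a log2 difference of -0.11 ± 0.096 (SE). Dis3, a nuclease of the exosome, had -0.16 ± 0.078, the poly(A)-binding genes Pabpn1 and Zc3h14 0.22 ± 0.14 and -0.029 ± 0.078. On flow cell B, Pop1, Dis3, Pabpn1 and Zc3h14 had -0.089, -0.13, -0.075 and 0.0071, and the list median was 0.046. Of the A-to-I editing enzymes, whose products paraspeckles can hold back, Adar had -0.13 ± 0.097 and Adarb1 -0.34 ± 0.11 (adjusted p = 0.535 by limma). Adarb1 had 518 in EV1, 527 in EV2, 519 in EV3, 437 in KD1 and 390 in KD2. Its groups did not overlap, which held for 12.4% of all tested genes in the lower direction. The Adarb1 difference was -0.35 on flow cell B and -0.23 with the length trend removed. The authors' deposited table gave Adarb1 an adjusted p of 0.143. Slc7a2, whose gene yields an mRNA form held in mouse paraspeckles, had 0.23 ± 0.14.

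**Figure D5:**
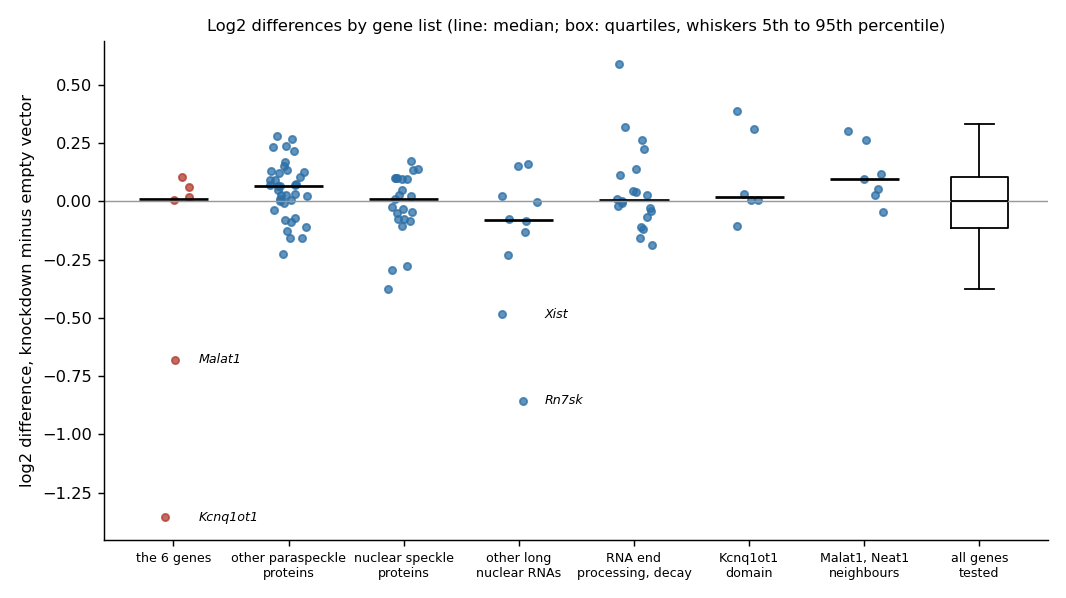
Log2 difference (knockdown minus empty vector) of each tested gene in the 6 genes described and in 6 lists of related genes, with the list median as a line and all tested genes as a box of quartiles with whiskers to the 5th and 95th percentile. Kcnq1ot1, Rn7sk, Malat1 and Xist are the lowest points, and the medians of the lists lie between -0.080 and 0.097.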

How the data were processed

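The deposited table holds a normalized signal per gene for 3 empty vector and 2 knockdown samples, which its values show to be reads scaled by the authors with a size factor for each library. Between 88.7% and 89.2% of values of up to 100 reads were whole within 0.02 reads, so whole reads were not recovered for nearly all genes and no count model was fitted; limma applied, as the design foresaw for normalized values. Per the submitters' processing notes, STAR, Partek and DESeq2 1.34.0 were used with mm9, their roles not stated. The authors' deposited comparison gives a p-value and a ratio per gene, which were copied. File positions do not match GRCm38, so only chromosomes were taken from them, and all positions come from GENCODE M21 or RefSeq. All 6 members matched by symbol.

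Values were taken as log2(signal + 1), on which changes of low genes are understated. Genes with a mean of at least 10 were fitted with limma 3.58.1 in R 4.3.3 (trend, robust, two-sided, Benjamini-Hochberg over 11990 genes). The fit was tested on simulated data with independent noise, without a flow cell split or length trend, so it does not cover these. Of 200 genes changed 2-fold 130 were recovered with 5 false calls, and of 200 changed 4-fold 169 with 4. Transcript length was found for 98.9% of genes. The members and the 11 lists were chosen with earlier results of these data known. Named were the members, the 4 most abundant genes of lists with more than 12 genes found, all genes with a mean of at least 10 of shorter lists, and the profile matches; 1 gene that this rule names is not reported here. Rn18s, Rn45s and Lars2 and the marker lists served as signs of library quality and cell identity. The alternatives tried are given with their effects at the end.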

Additional observations from a re-analysis of the deposited data

How the results depend on the processing

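Of 15 other ways of processing, and 1 more chosen after seeing the data, none reversed a called value, since no gene passed the threshold in the fit as reported. Same-numbered samples are not said to share anything, and the deviations of the pair with number 1 correlated at r = 0.066 over 11990 genes, so the samples were not treated as paired; the replicate block, in which EV3 has no partner, gave 311 genes past the threshold against 0. Leaving out 1 library at a time gave 0 to 105 such genes, 35 without EV2 and 105 without KD1. With a flow cell term or on flow cell B alone, the log2 difference was -0.44 for Malat1 and 0.054 for Nono, and the median was 0.039 for other paraspeckle proteins and 0.046 for RNA end processing and decay. That of other non-coding RNAs became 0.12 and 0.11. With the length trend removed, Neat1 had 0.35 and other paraspeckle proteins a median of 0.10, which was 0.075 with quantile normalization. The cause was not tested. Leaving out 1 library at a time, the log2 difference ranged from -0.88 to -0.48 for Malat1, from -0.071 to 0.28 for Neat1, from -2.20 to -0.51 for Kcnq1ot1, from -0.038 to 0.053 for Sfpq, from 0.0016 to 0.039 for Nono and from 0.010 to 0.10 for Pspc1. The medians ranged from 0.040 to 0.063 for other paraspeckle proteins, from -0.029 to 0.042 for speckle proteins, from -0.18 to 0.0020 for other non-coding RNAs, from -0.0071 to 0.16 for the neighbours of Malat1 and Neat1, from 0.015 to 0.050 for the Kcnq1ot1 domain, from -0.010 to 0.016 for RNA end processing and decay and from -0.053 to 0.026 for myoblast markers. Where 1 KD sample is left, it is assumed to vary like the controls. Depth limits Kcnq1ot1, which a mean signal minimum of 50 removes, and with 3 against 2 samples no difference of the DBHS genes within their standard errors can be told from 0.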
